A study of Mus musculus with 24 samples.

Results

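The genes described here are tumor necrosis factor (Tnf), members of its receptor and ligand families, and a gene named for its induction by TNF, followed in mouse bone marrow-derived macrophages (BMMs) during RANKL-mediated osteoclast differentiation. The members were 10 named genes: the ligands Tnf, Tnfsf9, Tnfsf14 and Tnfsf13b, the receptors Tnfrsf1a, Tnfrsf1b, Tnfrsf9, Tnfrsf21 and Fas, and the TNF-induced gene Tnfaip2. They were chosen with earlier results of these data known. Their probes were those whose single gene symbol in the array's annotation was a member. That gave 27 of the 45281 probes on the array. Of these, 21 passed the filter on dim probes, among 18346 that passed in all, and all 10 members were measured among 9917 genes. The cells came from bone marrow of male C57BL/6 mice of 5 weeks. All had been kept in M-CSF at 30 ng/mL for 72 h, and RANKL at 100 ng/mL was then added while M-CSF stayed in the medium. RNA was taken at 0, 24, 48 and 72 h of RANKL, and 6 arrays were run per time, 24 in all. The later times had no samples given M-CSF without RANKL, so the effect of RANKL and that of time in culture cannot be told apart. The labels do not say whether the 6 samples of a time were separate cultures or animals, so the p-values take in only the spread among these 24 arrays, which may be technical.

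TNF is a cytokine that macrophages release and that strengthens osteoclast formation when RANKL is present. It binds a pair of receptors. The product of Tnfrsf1a carries a death domain and is found on most cells, whereas the product of Tnfrsf1b lacks that domain, is found mainly on blood cells and recruits TRAF adaptor proteins. RANKL itself belongs to the TNF ligand family, and its receptor RANK, encoded by Tnfrsf11a, also signals through TRAF adaptors to NF-κB. The relatives differ in their partners. Tnfsf9 is the ligand of Tnfrsf9 (CD137), Tnfsf14 (LIGHT) binds the lymphotoxin beta receptor, and Tnfsf13b (BAFF) is a survival factor of B cells. Fas and Tnfrsf21 (DR6) are receptors with a death domain, and Tnfaip2 encodes a protein that takes part in forming thin membrane bridges between cells.

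The arrays were alike in quality. Between 15781 and 17109 probes were detected per array (detection p under 0.05), and median signals lay between 89.5 and 122. Each array correlated with the others of its time at r of 0.994 or more, in normalized signals across the 9917 measured genes. Markers were checked against the labelled cell type. All 7 macrophage genes with a probe were measured, and lysozyme Lyz2 was at a log2 signal of 14.79 at 72 h, against 14.75 at 0 h. The other 6 changed by 72 h, and 4 of them, among them the receptors Csf1r (0.67) and Mertk (2.27), were higher than at 0 h while Itgam (-0.43) and Cd14 (-0.37) were lower. Of 8 osteoclast genes measured, 7 were higher at each later time than at 0 h, and cathepsin K (Ctsk) rose by 2.96 on the log2 scale at 72 h. The summed signal of 10 neutrophil and progenitor genes lay between 10935 and 12275 at 72 h, against 58622 to 63841 at 0 h, and all 10 were lower at each later time. Of 6 T cell genes with a probe, 5 were detected on no array. The remaining gene was Cd4, whose log2 signal was 8.60 at 72 h, against 6.58 at 0 h, where no array detected it. Of 3 B cell genes with a probe 1 was measured, Cd79b, which fell by 0.77, 0.66 and 1.03 at 24, 48 and 72 h, and of 4 NK cell genes 0. Other lineage markers moved as well. Kit, a mast cell and progenitor receptor, fell by 1.99 at 24 h, the hemoglobin gene Hba-a1 was at least 3.18-fold lower there, and the collagen gene Col1a1 was higher by 1.08 at 72 h. On a bulk array, fewer cells of one type and less RNA per cell cannot be told apart, and the part that these other cell types had in the changes below was not tested.

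Against 0 h, 2 members rose and 7 fell at 24 h, 3 rose and 6 fell at 48 h, and 3 rose and 5 fell at 72 h (limma on log2 signals, Benjamini-Hochberg adjusted p under 0.05 over all 9917 genes). Tnfrsf9 is among the members that rose at each time. It passed the filter on dim probes only through 24 and 48 h, and no array detected it at 0 or 72 h. Changes were common across the array, and these counts have to be read against them. Of all genes tested, 29.2% rose at 24 h and 37.8% fell. The shares were 33.1% for rises and 39.2% for falls at 48 h, and 34.2% for rises and 39.4% for falls at 72 h. Between neighbouring times, 4 members rose and 5 fell at 48 h against 24 h, where 39.2% of all genes rose and 34.6% fell. At 72 h against 48 h, 4 rose and 4 fell, where 17.5% of all genes rose and 19.4% fell. These falls include Tnfsf9, which no array detected at either time, and Tnfrsf9, which no array detected at 72 h. The median log2 change of the 10 members against 0 h was -0.22 at 24 h, -0.29 at 48 h and -0.13 at 72 h, beside -0.05, -0.03 and -0.03 over all genes. The balance of directions depended on how the arrays were scaled. With scaling to the 75th percentile, 2260 genes were higher and 4764 lower at 24 h, beside 2898 and 3750 with quantile normalization. At 72 h against 48 h, 802 were higher and 2062 lower with median scaling and 985 and 1893 in the authors' processed values, beside 1732 and 1921 with quantile normalization. With median scaling 3 members rose and 5 fell in that last comparison.

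**Figure D1:**
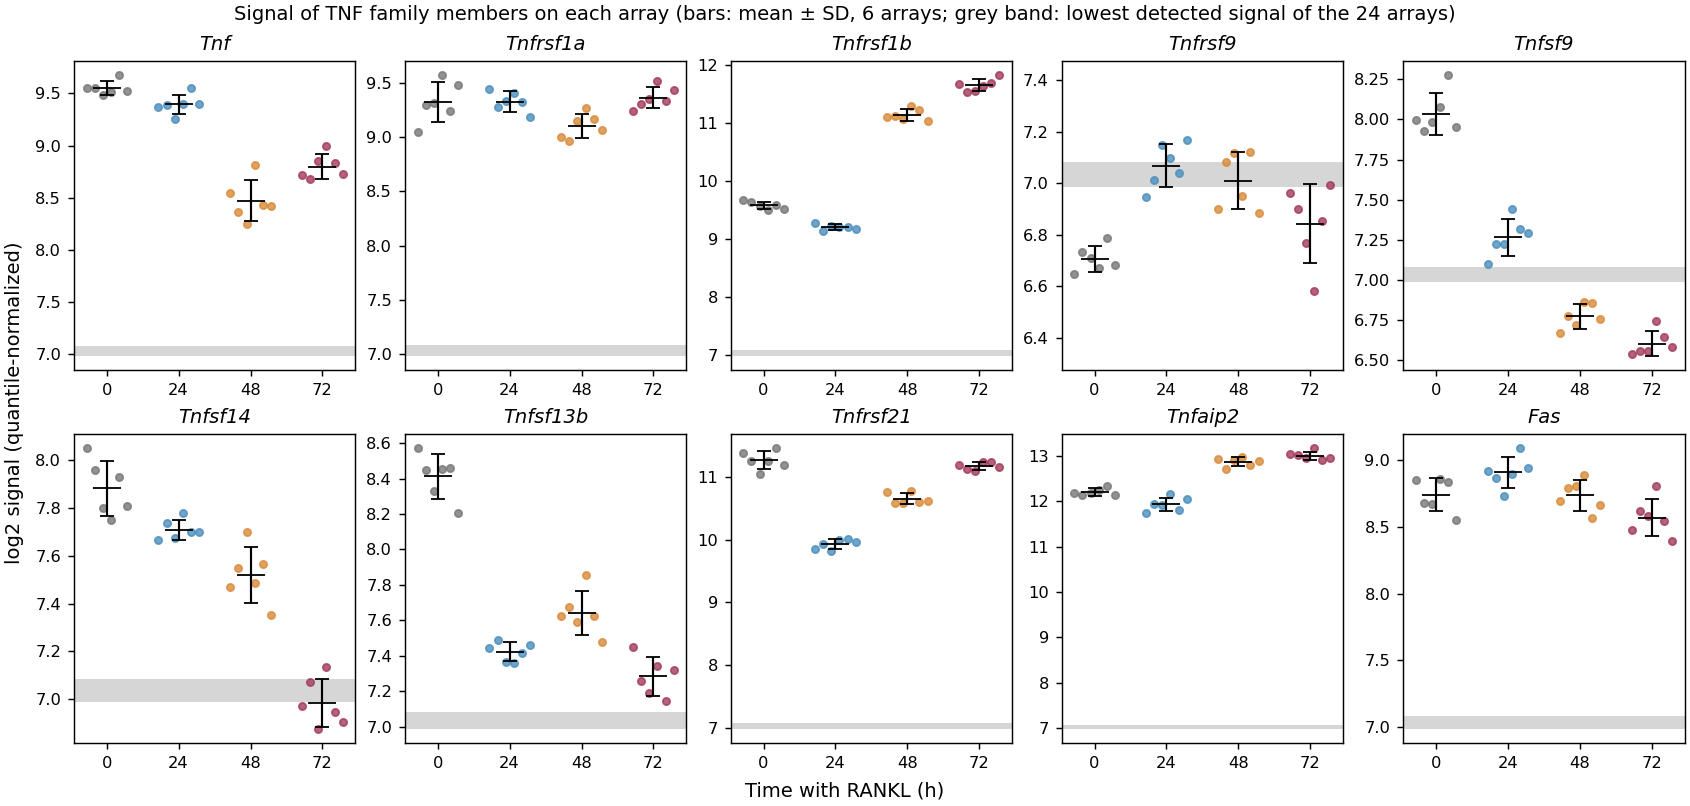
Quantile-normalized log2 signal (vertical axis) of the 10 members against hours with RANKL, 1 point per array, with the mean ± SD of 6 arrays, and a grey band from 6.99 to 7.08 that marks the lowest detected signal of the 24 arrays. Tnf sat lowest at 48 h, Tnfrsf1b split into a low pair and a high pair of times, and Tnfrsf9 stayed near the band.

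**Figure D2:**
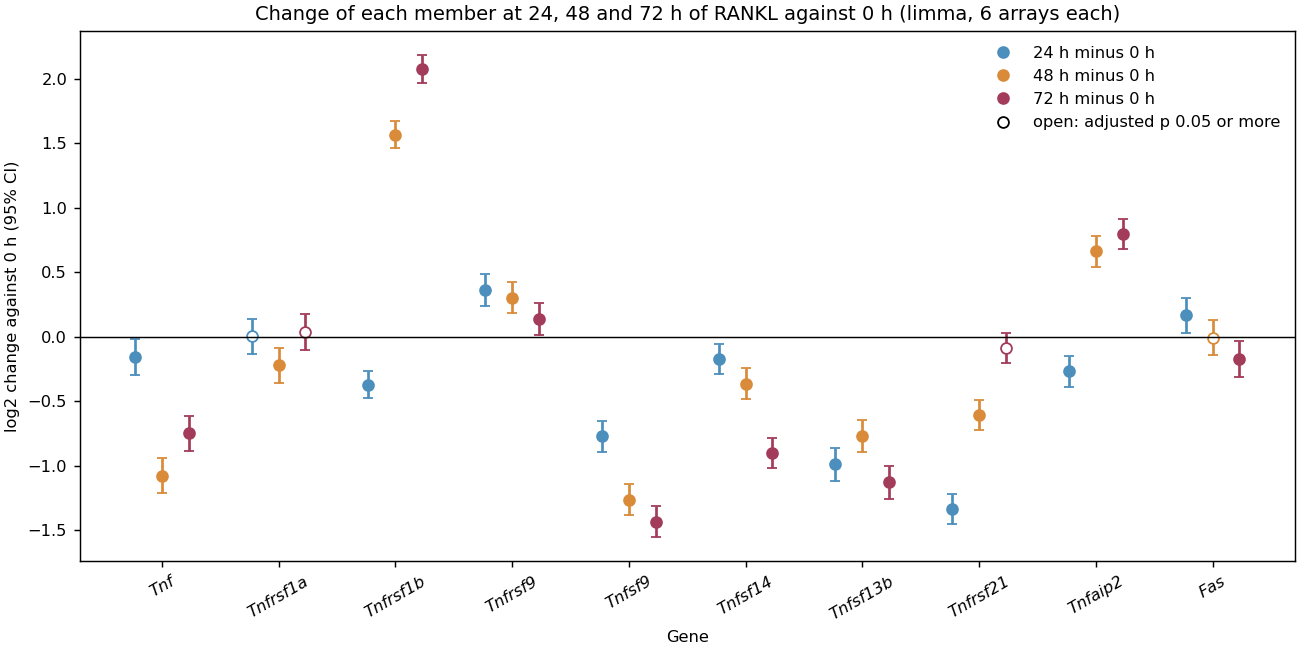
Log2 change of each member at 24, 48 and 72 h against 0 h with its 95% confidence interval from limma, filled where the adjusted p was under 0.05. The highest point is Tnfrsf1b at 72 h (2.08) and the lowest Tnfsf9 at 72 h (-1.43).

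Tnf, the ligand that gives the family its name, fell most between 24 and 48 h. Its log2 signal was 9.48, 9.54 and 9.68 at 0 h (lowest, median and highest of 6 arrays), 9.26, 9.39 and 9.55 at 24 h, 8.25, 8.43 and 8.82 at 48 h, and 8.68, 8.78 and 8.99 at 72 h. All arrays at 48 and 72 h lay under all arrays at 0 and 24 h, while those at 24 h overlapped those at 0 h. At 48 h the mean was 8.47 ± 0.20, against 9.55 ± 0.07 at 0 h (SD, n = 6 each), which was 2.11-fold lower (log2 change -1.08, SE 0.07, adjusted p = 1.7e-16). At 72 h Tnf was 1.68-fold lower than at 0 h, and higher than at 48 h by 0.33 on the log2 scale (adjusted p = 0.000195), although single arrays of these last times overlapped. The change at 24 h was small, -0.15 (adjusted p = 0.0441), and its call was lost with median scaling (adjusted p = 0.209), in the authors' processed values (adjusted p = 0.223), without the filter on dim probes (adjusted p = 0.0717) and when the arrays with the replicate number 1, 2, 3, 5 or 6 were left out at every time (adjusted p between 0.0615 and 0.1). A second Tnf probe gave -0.27 at 24 h (adjusted p = 0.000162), -1.07 at 48 h and -0.82 at 72 h, so it was called lower at 24 h as well.

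Tnfsf9, the ligand of Tnfrsf9, fell by 24 h and again by 48 h, when it left the detected range. Its signal was 7.93, 7.99 and 8.28 at 0 h, 7.10, 7.26 and 7.44 at 24 h, 6.67, 6.77 and 6.86 at 48 h, and 6.54, 6.57 and 6.74 at 72 h. The times at 0, 24 and 48 h did not overlap each other. It was detected on 6 arrays at 0 h and on 6 at 24 h, but on 0 arrays at 48 and 72 h, where only a bound can be given. A bound sets the mean of the detected time against the lowest detected signal, or the probe's own signal where that was higher. At 24 h Tnfsf9 was 1.70-fold lower than at 0 h (adjusted p = 5.22e-14), at 48 h at least 2.01-fold lower (adjusted p = 2.26e-20) and at 72 h at least 1.99-fold lower (adjusted p = 3.94e-22). At 72 h against 48 h it had no measured level on either side. A single probe represented this gene.

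Tnfsf14, which binds the lymphotoxin beta receptor, fell most between 48 and 72 h. Its signal was 7.75, 7.87 and 8.05 at 0 h, 7.67, 7.70 and 7.78 at 24 h, 7.35, 7.52 and 7.70 at 48 h, and 6.87, 6.96 and 7.13 at 72 h. The 72 h arrays lay under all others, and 2 of the 6 detected the probe. Against 0 h it was 1.29-fold lower at 48 h (adjusted p = 8.84e-07). At 72 h, where its mean of 6.98 lay at the edge of detection and no fold is given, it was lower again (log2 change -0.90, SE 0.06, adjusted p = 2.5e-16). At 72 h the mean was lower than at 48 h by a log2 change of -0.54 (adjusted p = 1.37e-09). The log2 change of -0.17 at 24 h (adjusted p = 0.00869) was lost with median scaling (adjusted p = 0.322), in the authors' processed values (adjusted p = 0.369) and without the arrays numbered 1 (adjusted p = 0.0756). A second kept probe gave -0.07 at 24 h (adjusted p = 0.337), -0.18 at 48 h and -0.40 at 72 h, and the remaining probe was detected on no array. Elane, a neutrophil protease, was among the 3 genes whose signal followed Tnfsf14 most closely (Pearson r = 0.958 over 24 arrays), and the summed neutrophil signal given above was also lowest at 72 h. That sum had its own course. It was already down to between 25735.7 and 27190.5 at 24 h, where Tnfsf14 had changed by -0.17, and lay between 23215 and 24632 at 48 h. Whether a change in the number of such cells had a part in the fall of Tnfsf14 was not tested.

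Tnfsf13b, the B cell survival factor, fell early. Its signal was 8.21, 8.45 and 8.57 at 0 h, 7.36, 7.43 and 7.49 at 24 h, 7.48, 7.62 and 7.85 at 48 h, and 7.14, 7.29 and 7.45 at 72 h. All arrays at 0 h lay above every later array, and it was detected on all 24. Against 0 h it was 1.99-fold lower at 24 h (log2 change -0.99, SE 0.06) and 1.71-fold lower by 48 h. At 72 h the fall was 2.19-fold (log2 change -1.13, SE 0.06, adjusted p = 1.58e-18). The order of the times was 0, 48, 24 and 72 h from high to low, and each neighbour differed (adjusted p of 0.00179 for 48 h against 24 h, with overlapping arrays, and 0.0389 for 72 h against 24 h, a comparison added after the values were seen). A second kept probe gave -1.07, -0.78 and -1.11 at 24, 48 and 72 h, with a difference of -0.05 between 72 and 24 h (adjusted p = 0.396). The remaining probe was detected on 2 arrays, both at 0 h, and did not pass the filter.

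Tnfrsf1b, the TNF receptor without a death domain, had the largest rise among the members. Its log2 signal was 9.50, 9.58 and 9.67 at 0 h, 9.15, 9.21 and 9.29 at 24 h, 11.04, 11.12 and 11.30 at 48 h, and 11.55, 11.66 and 11.83 at 72 h. No array of one time overlapped those of another. The mean at 48 h was 11.15 ± 0.10, against 9.58 ± 0.06 at 0 h, and that at 72 h was 11.66 ± 0.11 (SD, n = 6 each). The rise was 2.96-fold at 48 h (log2 change 1.57, SE 0.05, adjusted p = 7.48e-25). It reached 4.22-fold at 72 h (2.08, SE 0.05, adjusted p = 7.64e-29). The step between 24 and 48 h was the largest, with 48 h higher by 1.94 on the log2 scale, and 72 h stood 0.51 above 48 h.

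The 24 h value of Tnfrsf1b depended on the probe. The probe with the highest mean signal gave a log2 change of -0.37 against 0 h (adjusted p = 9.64e-08). Both other kept probes gave higher signals at 24 h, by 0.23 (adjusted p = 0.000524) and 0.31 (adjusted p = 0.00194), the last from a probe detected on 3 arrays at 24 h and on 0 arrays at 0 h. The mean of the kept probes was 0.06 (adjusted p = 0.322). At 48 and 72 h these probes gave 1.68 and 2.06, and 1.00 and 1.19, so the rise at those times was found with each probe.

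Tnfrsf1a, the TNF receptor with the death domain, moved little. Its signal was 9.04, 9.30 and 9.57 at 0 h, 9.18, 9.33 and 9.44 at 24 h, 8.96, 9.10 and 9.26 at 48 h, and 9.24, 9.34 and 9.52 at 72 h. The arrays of all times overlapped those at 0 h. At 48 h it was 1.17-fold lower than at 0 h (log2 change -0.22, SE 0.07, adjusted p = 0.00386), and 72 h was higher than 48 h by 0.26 (adjusted p = 0.0023), a call lost with median scaling (adjusted p = 0.0809). The change against 0 h was 0.00 at 24 h (95% CI -0.14 to 0.14) and 0.04 at 72 h (95% CI -0.10 to 0.18), neither past the threshold. Its 3 probes moved alike, and the second gave -0.14 at 48 h (adjusted p = 0.0507).

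The pair was compared directly by subtracting the Tnfrsf1a from the Tnfrsf1b log2 signal on each array and setting the result relative to its mean at 0 h. That difference ranged between -0.32 and 0.37 at 0 h, between -0.44 and -0.26 at 24 h, between 1.68 and 1.91 at 48 h, and between 1.86 and 2.18 at 72 h. The arrays at 48 and 72 h lay above all arrays at 0 h. Tnfrsf1b rose more than Tnfrsf1a by 1.79 at 48 h and by 2.04 at 72 h (exact two-sided permutation test, 6 arrays each, p = 0.00216, the smallest this design allows, and 0.00325 after Benjamini-Hochberg adjustment over 3 comparisons). At 24 h the difference was -0.37 (exact p = 0.00433 before and after adjustment). With the second probe of each gene the 24 h value was 0.18 (exact p = 0.0801, adjusted), so its sign followed the probe.

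**Figure D3:**
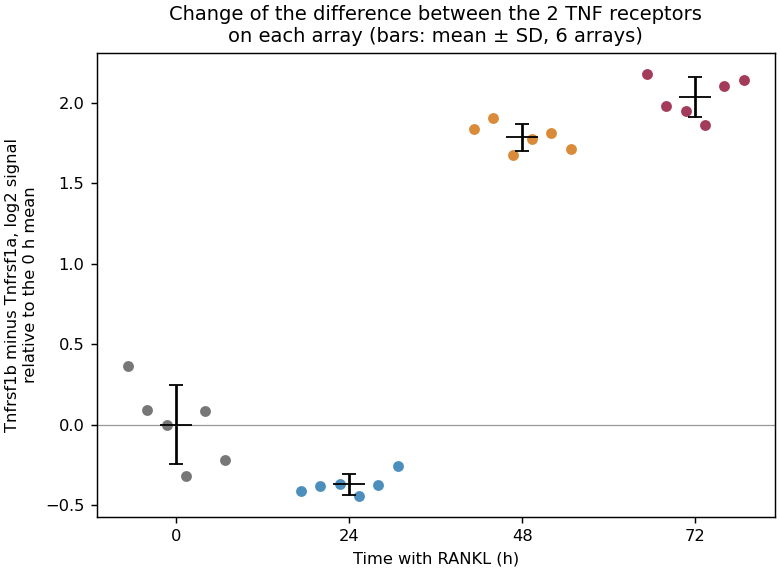
Tnfrsf1b minus Tnfrsf1a log2 signal on each array, relative to the 0 h mean, against hours with RANKL, with the mean ± SD of 6 arrays. The 48 and 72 h arrays lie between 1.68 and 2.18, above the 0 h arrays, which reach 0.37.

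Tnfaip2, the gene named for its induction by TNF, dipped and then rose. Its signal was 12.12, 12.19 and 12.34 at 0 h, 11.74, 11.93 and 12.15 at 24 h, 12.70, 12.90 and 12.96 at 48 h, and 12.90, 12.97 and 13.16 at 72 h. The arrays at 48 and 72 h lay above all earlier ones, and those at 24 h overlapped those at 0 h. It fell by 0.27 at 24 h on the log2 scale (SE 0.06, adjusted p = 0.000123), and then stood above 0 h, by 1.58-fold at 48 h (adjusted p = 1.63e-12). By 72 h the rise over 0 h was 1.74-fold (log2 change 0.80, SE 0.06, adjusted p = 1.01e-14). The rise between 48 and 72 h, 0.13, did not pass the threshold (adjusted p = 0.0709), but it did with both other probes (0.24, adjusted p = 0.000214, and 0.25, adjusted p = 0.000194). All 3 probes fell at 24 h, by 0.27, 0.56 and 0.49, and rose at 48 and 72 h. Across the 24 arrays Tnfaip2 and Tnfrsf1b had the highest correlation of any pair of members (r = 0.965) and Tnf and Tnfrsf1b the lowest (r = -0.83), as a description over arrays that share their times.

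Promoter sequence is shown for these last members and for Tnf, since the correlations just given were the highest and the lowest between members. Each is the 250 bases before the annotated start in RefSeq (build GRCm38.p6), read in the direction of transcription, with motif matches in capitals.
Tnf, chr17:35202008-35202257, minus strand: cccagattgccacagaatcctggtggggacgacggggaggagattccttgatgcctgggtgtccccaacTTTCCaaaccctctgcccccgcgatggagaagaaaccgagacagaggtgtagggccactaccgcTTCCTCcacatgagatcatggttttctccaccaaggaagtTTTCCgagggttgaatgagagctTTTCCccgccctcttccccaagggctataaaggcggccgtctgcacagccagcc
Tnfrsf1b, chr4:145246871-145247120, minus strand: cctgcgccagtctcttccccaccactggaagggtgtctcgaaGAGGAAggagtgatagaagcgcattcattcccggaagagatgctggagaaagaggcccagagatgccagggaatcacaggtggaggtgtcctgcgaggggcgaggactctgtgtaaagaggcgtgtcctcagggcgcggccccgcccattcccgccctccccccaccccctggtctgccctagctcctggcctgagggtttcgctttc
Tnfaip2, chr12:111442411-111442660, plus strand: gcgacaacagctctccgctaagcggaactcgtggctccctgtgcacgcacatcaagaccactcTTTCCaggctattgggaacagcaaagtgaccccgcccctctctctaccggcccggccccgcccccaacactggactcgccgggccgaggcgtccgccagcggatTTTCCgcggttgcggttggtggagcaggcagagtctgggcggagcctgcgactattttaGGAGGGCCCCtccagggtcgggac
Both strands were searched for the NF-κB site consensus, the AP-1 site TGANTCA, the NFAT core GGAAA and the PU.1 core GAGGAA, whose letters can overlap those of the NFAT core. The Tnf promoter held 3 NFAT cores and 1 PU.1 core, that of Tnfrsf1b 1 PU.1 core, and that of Tnfaip2 2 NFAT cores and 1 match to the NF-κB consensus, which starts 24 bases before the start site. Of 9 members with a promoter entry, 2 held the NF-κB consensus (Tnfaip2 and Tnfrsf9), 4 the AP-1 site, 7 the NFAT core and 4 the PU.1 core. These members had 11 entries, since Tnfrsf9 and Tnfsf13b had 2 each, and a match in either counted. The NF-κB and AP-1 matches of Tnfrsf9 and the AP-1 match of Tnfsf13b lay only in the second entry. Among 32851 single promoters of the same length, 7.25% held the NF-κB consensus, 6.75% the AP-1 site, 55.6% the NFAT core and 23.3% the PU.1 core. The member counts, taken per gene, are thus not on the same footing as these shares. A match is a run of letters and not a bound site, and binding was not measured here.

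Tnfrsf21, a receptor with a death domain, fell and recovered. Its signal was 11.05, 11.25 and 11.45 at 0 h, 9.82, 9.95 and 10.01 at 24 h, 10.58, 10.61 and 10.77 at 48 h, and 11.09, 11.18 and 11.24 at 72 h. The 24 h arrays lay under all others, and those at 72 h overlapped those at 0 h. It was 2.52-fold lower at 24 h (log2 change -1.33, SE 0.06, adjusted p = 2.13e-21). Its 48 h mean was 1.52-fold lower than at 0 h. At 72 h the difference from 0 h was -0.09 (95% CI -0.20 to 0.03, adjusted p = 0.16). This last value turned with the processing. It passed the threshold as a fall with median scaling (-0.29, adjusted p = 0.00131), with scaling to the 75th percentile (-0.28, adjusted p = 0.000541) and in the authors' processed values (-0.23, adjusted p = 0.00755), whereas the second probe was higher at 72 h by 0.57 (adjusted p = 1.08e-11). That probe fell at 24 h as well, by 0.75, and gave -0.01 at 48 h (adjusted p = 0.87). The gain after 24 h was shared by the probes, and 72 h stood 1.25 above 24 h with the first and 1.33 with the second, in a comparison added after the values were seen.

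Fas, the death receptor, moved little, and its probes differed. Its signal was 8.55, 8.76 and 8.86 at 0 h, 8.74, 8.91 and 9.09 at 24 h, 8.57, 8.74 and 8.89 at 48 h, and 8.40, 8.57 and 8.80 at 72 h. The arrays of all times overlapped. With the probe of highest mean signal the log2 change was 0.17 at 24 h (adjusted p = 0.028). It was -0.01 at 48 h (adjusted p = 0.94), and the 72 h value was -0.17 (adjusted p = 0.0217). The 24 h call was lost without the arrays numbered 2 (adjusted p = 0.0697), 5 (adjusted p = 0.0658) or 6 (adjusted p = 0.133) and with scaling to the 75th percentile (adjusted p = 0.134). The 72 h call was lost without those numbered 1 (adjusted p = 0.13) or 5 (adjusted p = 0.0626). A second probe was higher at all 3 times, by 0.52 at 24 h (adjusted p = 7.68e-08), by 0.41 at 48 h (adjusted p = 4.4e-06) and, at 72 h, by 0.23 (adjusted p = 0.00395). The remaining 2 probes were detected on 1 array and on none and did not pass the filter. The direction at 48 and 72 h against 0 h therefore depended on the probe, while both were higher at 24 h and lower at 72 h than at 24 h. The ligand of Fas, Fasl, was detected on no array.

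Tnfrsf9, the receptor of Tnfsf9, stayed at the edge of detection. Its signal was 6.65, 6.69 and 6.79 at 0 h, 6.95, 7.07 and 7.17 at 24 h, 6.88, 7.02 and 7.12 at 48 h, and 6.58, 6.88 and 6.99 at 72 h. It was detected on 4 arrays at 24 h and 3 at 48 h, and on 0 arrays at the other times, so no time has a level that all of its arrays measured. It passed the filter on dim probes only through 24 and 48 h. Its calls at those times against 0 h are therefore not independent of the filter. At 24 h its mean was above that at 0 h by 0.36 (adjusted p = 1.75e-06), which as a bound is at least 1.01-fold higher. At 48 h it was above 0 h by 0.30 (adjusted p = 2.61e-05), with no fold given because the detected mean did not exceed the floor. The call at 72 h (0.14, adjusted p = 0.0368) compares 2 times at which no array detected the probe, and it was lost without the arrays numbered 1 (adjusted p = 0.159), 2 (adjusted p = 0.0828) or 6 (adjusted p = 0.151). Its 2 other probes did not pass the filter, 1 of them being detected on a single array and the other on none.

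**Figure D4:**
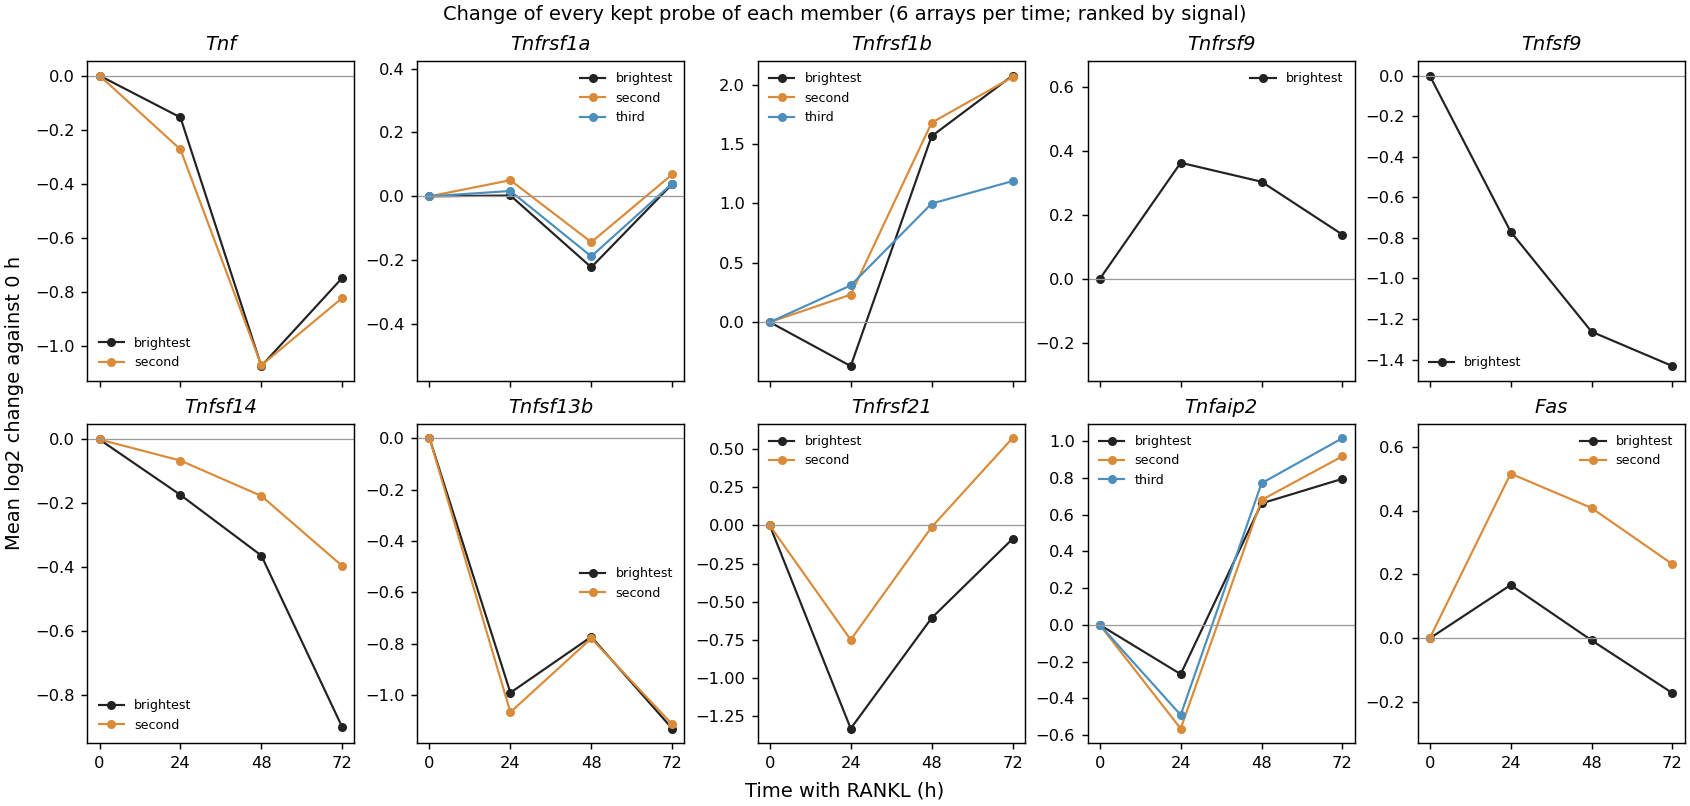
Mean log2 change against 0 h (vertical axis) of each of the 21 kept probes of the members against hours with RANKL, 6 arrays per time, with the probes of a gene ranked by mean signal. The probes of Tnf, Tnfrsf1a and Tnfsf13b run close together. At 72 h those of Fas give -0.17 and 0.23 and those of Tnfrsf21 -0.09 and 0.57, and at 24 h those of Tnfrsf1b differ in sign.

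The genes whose signals were most like each member over the 24 arrays are given as a description, since the arrays share their times. Tnf was most like Slc35e4 (r = 0.97), Ctdspl (0.964) and Bcl7a (0.963). Tnfsf9 was most like Zranb3 (0.986), Atg9b (0.985) and Aqp9 (0.983). Tnfsf14 was most like Folr2 (0.97), Mt1 (0.963) and Elane (0.958), and Tnfsf13b like Chil1 (0.977), Hsd11b1 (0.972) and Pi16 (0.969). These ligands thus had partners at r over 0.95. Tnfrsf1b was most like Slamf7 (0.996), Trf (0.996) and Ddhd1 (0.995), Tnfaip2 like Kctd21 (0.983), Fam20c (0.982) and Aplp2 (0.981), and Tnfrsf21 like Gstm2 (0.991), Lrrc27 (0.979) and Hk3 (0.974). The members with small changes had looser partners. Tnfrsf1a was most like Nus1 (0.855), Pde6d (0.824) and 9530068E07Rik (0.764), Tnfrsf9 like Parp10 (0.847), Ivns1abp (0.841) and Stat2 (0.836), and Fas like Pcsk7 (0.854), Cpsf7 (0.844) and Itgb3bp (0.841).

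Around the members, 87 other genes of the TNF pathway were listed in 6 groups and 56 were measured. Against 0 h, 25 of these rose and 21 fell at 24 h, and 27 rose and 20 fell at 48 h. At 72 h, 24 rose and 22 fell. Of all genes, 29.2% rose and 37.8% fell at 24 h, 33.1% and 39.2% at 48 h, and 34.2% and 39.4% at 72 h. The counts of each list below are also to be read beside these shares. The median log2 change of the 56 genes was 0.07 at 24 h, 0.10 at 48 h and 0.06 at 72 h, beside -0.05, -0.03 and -0.03 over all genes. With scaling to the 75th percentile the 24 h split was 18 higher and 25 lower, beside 2260 and 4764 of all 9917 genes.

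**Figure D5:**
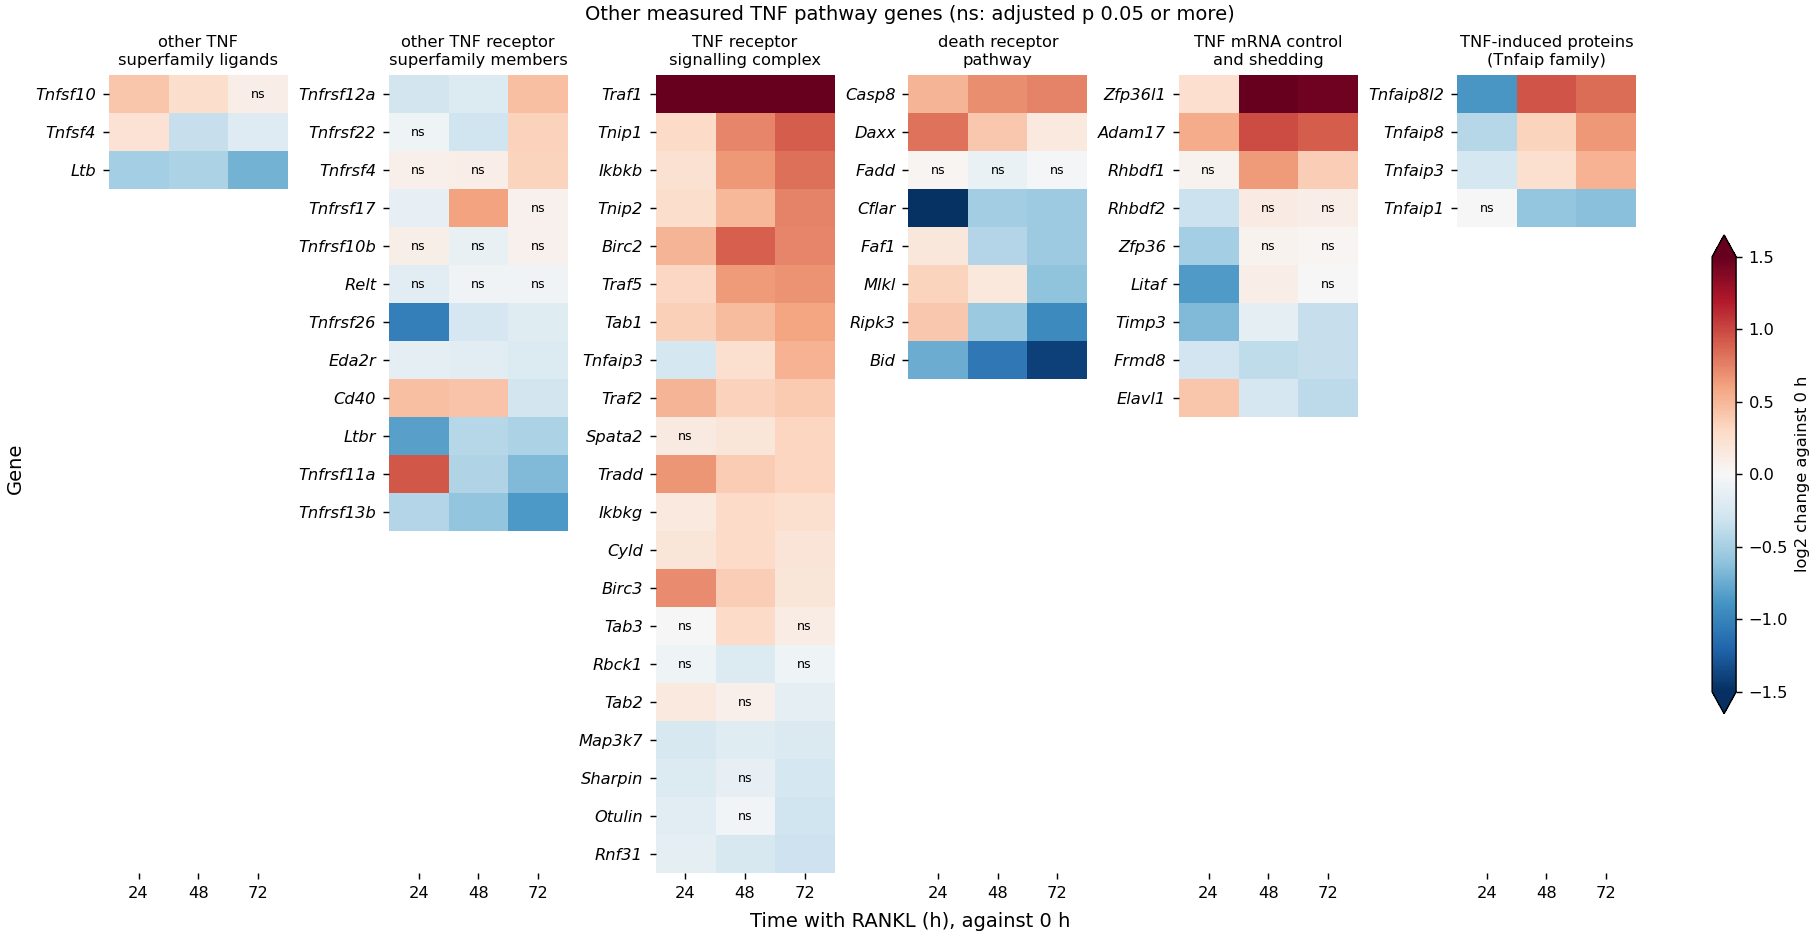
Log2 change at 24, 48 and 72 h against 0 h of the 56 measured pathway genes in their 6 lists (1 gene, Tnfaip3, is in 2 of them), red for higher and blue for lower, with ns where the adjusted p was 0.05 or more and colours ending at 1.5 either way. Traf1 (3.48 at 24 h) and Zfp36l1 (1.53 at 48 h) are the deepest red, and Cflar at 24 h (-1.48) and Bid at 72 h (-1.41) the deepest blue.

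Few other ligands were measured. Of 14 listed, 3 passed the filter. Ltb, a subunit of lymphotoxin, fell by 0.52 at 24 h and 0.47 at 48 h on the log2 scale, and at 72 h, where no array detected it, it was at least 1.47-fold lower than at 0 h (adjusted p = 1.16e-13). Tnfsf10 (TRAIL) rose by 0.41 at 24 h and 0.27 at 48 h, and its value at 72 h was 0.09 (adjusted p = 0.133). At 0 h its mean of 7.01 lay at the edge of detection, with 2 of 6 arrays detecting it, so the size of these rises is uncertain. Tnfsf4 was detected on 3 arrays at 24 h and on none at 0, 48 or 72 h, so its calls have no measured fold and it passed the filter only through 24 h. Lta, Cd40lg, Fasl, Cd70, Tnfsf8, Tnfsf11, Tnfsf12, Tnfsf15, Tnfsf18 and Eda did not pass the filter, and Tnfsf13 had no probe paired with its symbol alone.

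Among 12 other receptors measured, 2 rose and 6 fell at 24 h, 2 rose and 7 fell at 48 h, and 3 rose and 6 fell at 72 h. Tnfrsf11a, the receptor of RANKL, averaged a log2 signal of 10.41 at 24 h, against 9.48 at 0 h, which was 1.90-fold higher (adjusted p = 5.51e-15). It then averaged 9.04 at 48 h and 8.82 at 72 h, and these means were 1.36-fold and 1.58-fold lower than at 0 h. Cd40, which activates macrophages when bound, rose at 24 h (0.45) and 48 h (0.43) and fell at 72 h (-0.27), and its 3 other probes were also lower at 72 h. Of those probes only the second was called higher at 24 h (0.41) and at 48 h (0.17). Ltbr, a receptor of Tnfsf14, fell by 0.81, 0.43 and 0.48 at 24, 48 and 72 h. Tnfrsf26, a mouse receptor, was 2.04-fold lower at 24 h, where its mean of 7.07 lay near the edge of detection and 5 of 6 arrays detected it. Tnfrsf13b, a receptor of Tnfsf13b, gave -0.44, -0.60 and -0.86 with its first probe, but 0.22, 0.18 and 0.34 with the second, each called, so its direction depended on the probe. Tnfrsf17, another receptor of Tnfsf13b, was detected on 6 arrays at 48 h and on none at 0, 24 or 72 h, and was at least 1.28-fold higher at 48 h than at 0 h. It passed the filter only through 48 h. At 72 h the largest rises were those of Tnfrsf12a (0.45), Tnfrsf22 (0.35) and Tnfrsf4 (0.33). The mean of Tnfrsf4 at 0 h, 7.02, lay at the edge of detection, with 2 of 6 arrays detecting it, so the size of its rise is uncertain. Cd27, Tnfrsf8, Tnfrsf11b, Tnfrsf13c, Tnfrsf14, Ngfr, Tnfrsf18, Tnfrsf19, Tnfrsf23, Tnfrsf25 and Edar were detected on no array, among them 1 receptor each of Tnfsf14 (Tnfrsf14) and Tnfsf13b (Tnfrsf13c).

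The adaptors, ubiquitin enzymes and kinases that assemble at TNF receptors were more often higher than lower. Of 21 measured, 13 rose and 5 fell at 24 h, 15 rose and 3 fell at 48 h, and 14 rose and 5 fell at 72 h. Of all genes, 29.2% rose and 37.8% fell at 24 h, 33.1% and 39.2% at 48 h, and 34.2% and 39.4% at 72 h. With scaling to the 75th percentile the counts of this list were 9 and 6, 14 and 5, and 12 and 6. Over all 9917 genes that scaling gave 2260 higher and 4764 lower at 24 h. It gave 2730 and 4322 at 48 h, and 2743 and 4494 at 72 h. The largest change was that of Traf1, an adaptor that pairs with TRAF2 at the receptor Tnfrsf1b. Its mean log2 signal was 10.94 at 24 h, against 7.46 at 0 h, which was 11.2-fold higher (log2 change 3.48, SE 0.06, adjusted p = 4.29e-33). The mean of 9.97 at 72 h was still 5.72-fold above that at 0 h. A second Traf1 probe gave 3.88, 1.95 and 1.69 at 24, 48 and 72 h. Tradd, the adaptor of death domains, rose by 0.66 at 24 h, although its second probe gave 0.01 (adjusted p = 0.863). Birc3, a ubiquitin ligase, was detected on 3 arrays at 24 h and on 0 arrays at 0 h, and was at least 1.03-fold higher at 24 h. Those 3 arrays were the fewest that pass the filter on dim probes, so the 24 h call of Birc3 is not independent of the filter. Its relative Birc2 rose by 0.89 at 48 h, and its 3 other probes by 0.64, 0.36 and 0.19. Tnip1, which restrains NF-κB signaling, rose by 0.73 at 48 h and 0.91 at 72 h, and the kinase Ikbkb by 0.83 at 72 h. The falls were smaller. At 24 h Tnfaip3 gave -0.26, Map3k7 -0.24 and Sharpin -0.20, at 48 h Rnf31 -0.24, Rbck1 -0.21 and Map3k7 -0.19, and at 72 h Rnf31 -0.31, Otulin -0.29 and Sharpin -0.26. The calls of Sharpin at 24 h and of Map3k7 at 24 and 48 h were lost with median scaling (adjusted p between 0.069 and 0.0954) and in the authors' processed values, and the second probe of Map3k7 was higher at these times, by 0.32 and 0.16. Ripk1 and Chuk had no probe paired.

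In the death receptor pathway, 8 of 10 genes were measured, of which 5 rose and 2 fell at 24 h, 3 rose and 4 fell at 48 h, and 2 rose and 5 fell at 72 h. Cflar, an inhibitor of caspase 8 activation, was 2.79-fold lower at 24 h (log2 change -1.48, SE 0.05, adjusted p = 7.39e-24) and 1.45-fold lower at 72 h than at 0 h. Casp8 itself rose by 0.51 at 24 h, 0.70 at 48 h and 0.75 at 72 h. Bid, which is cut by caspase 8, fell by 0.74, 1.08 and 1.41 at those times with its first probe, whereas the second gave -0.07, -0.03 and -0.11. Ripk3, a kinase of necroptosis, rose by 0.40 at 24 h and was 1.94-fold lower at 72 h (adjusted p = 1.71e-14). Its substrate Mlkl rose by 0.34 at 24 h and fell by 0.60 at 72 h with its first probe, and the second gave 0.01 (adjusted p = 0.871) and -0.20 (adjusted p = 0.00318). Daxx rose by 0.81 at 24 h, while its 72 h value of 0.14 turned to -0.03 with median scaling and -0.02 with scaling to the 75th percentile.

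Among genes that control Tnf mRNA or the release of TNF from the membrane, 9 of 11 were measured, and 3 rose and 5 fell at 24 h, 4 rose and 3 fell at 48 h, and 3 rose and 3 fell at 72 h. Zfp36l1, which promotes decay of AU-rich mRNAs, rose by 0.25 at 24 h, a call lost with scaling to the 75th percentile (adjusted p = 0.101), and was 2.90-fold higher at 48 h than at 0 h (adjusted p = 4.3e-25). By 72 h its rise was 2.75-fold. Its second probe gave 1.38 and 1.32 at 48 and 72 h. Zfp36, which does the same to Tnf mRNA, fell by 0.52 at 24 h and gave 0.06 (adjusted p = 0.329) and 0.03 (adjusted p = 0.597) at 48 and 72 h. Adam17, the protease that sheds TNF and its receptors, rose by 0.55 at 24 h, 0.97 at 48 h and 0.90 at 72 h, and its second probe by 0.77, 1.39 and 1.45. Rhbdf1 rose by 0.64 at 48 h and 0.37 at 72 h. Litaf, named for its induction by lipopolysaccharide, fell by 0.85 at 24 h and by 0.36 with its second probe. Timp3, an inhibitor of ADAM17, fell by 0.66 at 24 h and 0.34 at 72 h with its first probe, whereas the second gave -0.07 (adjusted p = 0.264) and -0.05 (adjusted p = 0.427). Elavl1 rose by 0.42 at 24 h and fell by 0.25 at 48 h and 0.39 at 72 h with the first probe, and the second gave 0.06 and 0.13 at those last times. Frmd8 fell by 0.38 at 48 h and 0.35 at 72 h, where its second probe gave 0.00 and -0.04. Zfp36l2 and Adam10 did not pass the filter.

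The other genes named for induction by TNF shared the course of Tnfaip2 in part. Of 4 measured, 0 rose and 3 fell at 24 h, and 3 rose and 1 fell at 48 and at 72 h. Tnfaip8l2 was 1.84-fold lower at 24 h than at 0 h, and rose 1.92-fold by 48 h and 1.79-fold by 72 h. Tnfaip8 fell by 0.42 at 24 h and rose by 0.34 at 48 h and 0.65 at 72 h. Tnfaip3, the deubiquitinase A20, fell by 0.26 at 24 h and rose by 0.24 at 48 h and 0.52 at 72 h, and its 48 h call was lost with median scaling (adjusted p = 0.0504) and with scaling to the 75th percentile (adjusted p = 0.06). Tnfaip1 fell by 0.58 at 48 h and 0.62 at 72 h. Tnfaip6 had no probe paired, and Tnfaip8l1 and Tnfaip8l3 were detected on no array.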

How the data were processed

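Total RNA of BMMs at 0, 24, 48 and 72 h of RANKL was hybridized to Illumina mouse bead arrays, 6 per time. The signal intensity of each probe was deposited as the authors extracted it with Illumina GenomeStudio, without normalization, and a detection p-value against negative control beads was deposited beside it. A second table holds the authors' processed log2 values. They rose with the signal of the same array (Spearman 1 on each array), and their median differed between arrays, from 1.90 to 1.99. The methods name a log transformation and quantile normalization. How these values were centred is not given in the sources used here.

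Signals were log2-transformed, and quantile normalization was applied over the 24 arrays without background subtraction. A probe was kept where 3 or more of the 6 arrays at any one time gave a detection p under 0.05. The platform annotation paired 34885 probes with 1 gene symbol, 18 with several and 10378 with none, and only the first were named. The kept probe of highest mean signal stood for its gene. Genes were tested with limma 3.58.1 in R 4.3.3 (all 4 times in one fit, trend and moderated variance, Benjamini-Hochberg adjustment over 9917 genes), single probes with the same fit adjusted over all 18346 kept probes, and the difference between the TNF receptors with an exact permutation test. Fits were tested on simulated data. The methods name a Student's test with Bonferroni adjustment, which was run as an alternative. Other alternatives were median and 75th percentile scaling, normexp background correction, the processed values, other filters and probe choices, array weights, the replicate block and leaving out each replicate number. Counts of each pathway list under the other scalings were added after the data were seen.

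All members were named with every probe. From each pathway list, up to 3 called genes with the largest rise and up to 3 with the largest fall at each time were named, and those not measured, apart from some genes of the death receptor list that are not reported here. The members and lists were chosen with earlier results of these data known. A fold is 2 to the power of the log2 change. The number of arrays limits the precision. Promoters were taken from RefSeq for the 9 members that matched by symbol. Figures were drawn with matplotlib 3.10.9.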

Additional observations from a re-analysis of the deposited data

Results flagged for a closer look

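Of 40 groups of 6 arrays (10 members at 4 times), 1 held an array far from the rest. Tnf at 0 h had a log2 signal of 9.67572 on the array numbered 5, while the other 5 arrays lay between 9.48 and 9.55. The gap to the nearest array was 0.643 of the range of the group, above the 95% critical value of Dixon's test. Chance gives such an array in about 1 of 20 groups. The fall of Tnf at 48 and 72 h was called with and without the arrays of that number.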

How the results depend on the processing

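Of 50 member changes (10 genes in 5 comparisons), 20 kept their direction and their side of the threshold under every alternative that gave a value. Of 995 values recomputed for these changes, 891 kept both. Part of that agreement was fixed in advance. The fit without trend, the t-tests, the fits on only the times compared and the replicate block keep the main log2 changes, so no direction could turn there. For Tnfsf9 and Tnfrsf9, each with a single kept probe, the other probe choices also returned the main value. The counts of called members and pathway genes were within 1.5 times their value under all scalings, filters, probe choices, variance models and left-out replicate numbers. The strict filter left out Tnfrsf9.

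The stricter rules lowered the counts. With the methods' t-test and Bonferroni adjustment, 5 members were called at 24 h, 5 at 48 h, 4 at 48 h against 24 h and 1 at 72 h against 48 h, and 13, 15 and 23 pathway genes at 24, 48 and 72 h. Among all 9917 genes this rule called 1047 higher and 1241 lower at 24 h, and 1318 and 1551 at 48 h. At 72 h it called 1382 and 1652. It called 1764 and 1687 at 48 h against 24 h, and 219 and 413 at 72 h against 48 h. For the fold rules that follow, no count over all genes is given here to set beside them. With at least 1.5-fold, 3 members were called at 24 h, 4 at 48 h against 24 h and 0 at 72 h against 48 h (8 with limma at any fold), and 12, 13 and 19 pathway genes. With at least 2-fold, 1 member was called at 24 h, 3 at 48 h, 3 at 72 h, 1 at 48 h against 24 h and 0 at 72 h against 48 h, and 3 pathway genes at each time.

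Directions turned where changes were small or probes differed. The 24 h difference between the TNF receptors was 0.034 (exact p = 0.729, adjusted) with the mean of the kept probes and 0.18 with the second. With these choices Tnfrsf1b gave 0.057 and 0.23 at 24 h, Tnfrsf21 0.24 and 0.57 at 72 h, and Fas 0.20 and 0.41 at 48 h and 0.030 and 0.23 at 72 h. With scaling to the 75th percentile Tnfrsf1a gave -0.054 at 24 h and -0.066 at 72 h, and Tnfrsf9 0.012 at 48 h against 24 h. Median scaling gave -0.078 and the processed values -0.014 for Tnfrsf1a at 72 h, the processed values gave 0.019 for Fas at 48 h, and array weights gave -0.0021 for Tnfrsf1a at 24 h. Without single replicate numbers Tnfrsf1a lay between -0.076 and 0.063 at 24 h and Fas between -0.035 and 0.046 at 48 h. The causes were not tested.

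With the replicate number as a block (replicate block), the difference between the TNF receptors kept its values of -0.37, 1.79 and 2.04 with an exact p of 0.0312, the smallest 6 pairs allow, and 9, 9 and 8 members were called at 24, 48 and 72 h. It added calls for Fas and Tnfaip2 at 72 h against 48 h, making 10 members. Among all 9917 genes the block called 3010 higher and 3919 lower at 24 h, 3406 and 4026 at 48 h, and 3481 and 4021 at 72 h. At 72 h against 48 h it called 1966 higher and 2125 lower, beside 1732 and 1921 without the block, so calls grew over the whole array. The deviations of arrays with one number correlated between -0.21 and 0.49 (median 0.14, 25 of 36 pairs over 0.1), and those of arrays with different numbers had a median of -0.01 (34 of 180 pairs over 0.1). Of the 24 arrays, 10 correlated best with one of their own number. This is a hint from the data that numbers may mark something shared, but not every pair was over 0.1 and the labels do not say what a number marks, so the samples were not treated as paired.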
